A study of Homo sapiens with 6 samples.

Results

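Nonsense-mediated decay (NMD) transcripts are splice forms of protein-coding genes whose stop codon lies far upstream of the last exon junction. The annotation used here, GENCODE 44, assigns this class from transcript structure, so a member is a predicted substrate of decay and not a transcript whose decay was measured. Members were chosen by this class and selected on 2 measured levels: a mean of at least 5 TPM for the protein-coding gene and a mean of at least 20 estimated counts for the transcript, both over 6 libraries. TPM is the abundance that Salmon gives per unit of transcript length, set to a constant sum in each library. These limits kept 6230 of the 252045 transcripts quantified, in 3203 of the 8246 protein-coding genes at or above 5 TPM. Of 21328 annotated NMD transcripts in 7805 genes, 14993 had any count and 14056 lay in a gene above the TPM limit. The limits used levels over all 6 libraries and not the difference between groups, and 5330 of the members met both limits in each group alone, while 900 did not. The mean count of 396 members reached 20 in +Dox alone and that of 446 in −Dox alone. At the count limit, POGLUT1-203 lay just inside with a mean of 20.01 counts and SLC39A8-221 just outside with 19.99. At the TPM limit, GOLGA1 lay just inside at 5.003 and POTEE just outside at 4.988.

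The libraries hold polyA RNA of K562 cells, a human erythroid leukemia line, that carry a Flag-PCBP1 cassette behind a doxycycline (Dox) inducible promoter at the AAVS1 site. The parental line with its exchange site was expanded from a single clone, and the Flag-PCBP1 cells were taken as a selected pool after cassette exchange. There were 3 libraries without Dox (−Dox) and 3 with Dox (+Dox, PCBP1 OE). The cassette is present in both groups, and only the +Dox cells had the drug as well as the induced protein, so the effects of drug and protein cannot be told apart. The dose and time of Dox for these libraries, and whether the replicates were separate cultures, are not given in the sources used here, so p-values measure the spread between these samples, which may be technical. The −Dox libraries held 84177316, 80104627 and 74766040 estimated counts (replicates 1 to 3). The +Dox libraries held 70905656, 82263502 and 82449808. PCBP1 checked the labels, with 247.5, 269.5 and 266.9 CPM in −Dox and 1030, 936.4 and 1037 CPM in +Dox. The log2 fold change was 1.94 (SE 0.055), with an adjusted p of 5.22e-10 in the quasi-likelihood test of edgeR. A two-sided exact permutation test of the CPM values gave p = 0.1, and no smaller p is possible with 3 libraries a group. Markers of the line were present in every library, with median levels of 9875 TPM for the fetal globin gene HBG2 and 128.0 for the erythroid transcription factor GATA1. Of the markers of other cell types, MS4A1, KRT5, CD3E, COL1A2 and CD14 had medians of at most 0.057 TPM and COL1A1 0.495, while CD3D (48.7 TPM), LYZ (89.7 TPM) and EPCAM (34.5 TPM) were present.

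NMD removes mRNAs on which a ribosome stops with an exon junction complex still bound downstream. The helicase UPF1 is then phosphorylated by SMG1, and further SMG proteins, among them SMG5 and SMG6, cut the RNA or bring in the enzymes that degrade it. Many splicing factors, above all the SR proteins, use this route to limit their own level through a poison exon or an intron spliced in the 3′ untranslated region. PCBP1 is a KH-domain protein that binds C-rich RNA, acts on splicing and delivers iron to proteins. A change in the level of an NMD transcript can follow from splicing, from transcription or from decay, and these cannot be told apart in steady-state polyA RNA. In bulk RNA, fewer cells of a type and less RNA per cell cannot be told apart either.

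Stop codons are shown first for a part of the members named in the results. Members of RPL8 and ATP6V1H are not among them. Each sequence is the mRNA strand of the GENCODE 44 transcript, 12 bases before the stop codon, the stop codon in capitals and 15 bases after it. The first group holds abundant NMD transcripts and those of splicing factors.
HNRNPA1-205: ggcagaagatttTAAttagggaggagtctg
HNRNPA2B1-203: aggagccgatacTGAgcttcttcctatttg
RPS3-218: aggacagagggcTAAatccatgaagtttgt
RPL11-204: ctggcccaaaacTAGcagagccgttcgagc
TRA2B-205: ctcaggaataagTGAagctgaaatttgaaa
SRSF3-203: ctcaccaccctcTGAatctgcattagccag
SRSF4-208: ttacaaggaaaaTGAgtgaatgtgggaatg
The second group holds transcripts of other genes whose differences between +Dox and −Dox are described in the results.
VMP1-216: cagttcaaaaacTAGtacagaaagttggat
ATP6V0A2-212: gagggctcgtttTGAtctcactcccagcag
ACAD9-206: gccgaggcgtgtTAAcactccggattcctg
GPS1-210: gcagaatgcaccTGAcgtcaactacgtggt
PARP12-205: ctccccaggatgTGAcgaccatgcaaacct
CNTRL-222: tttaagcaaaatTGAaggcatagaaaatat
PWP1-205: ttaggaacaataTGAacgtgaagatttctt
TMEM126B-205: cttaatctttcaTGAgaaactgaggataga
SKA3-201: gaggaaagcggaTGAtgttaatattcttct
HEPH-207: gcaaagtgtgagTGAttcagttgttccaca
IREB2-202: tgtacgaaattgTGAtggctttttaatgaa
On GRCh38 the stop of TRA2B-205 lies at chr3:185931772-185931774 on the minus strand, inside a 276-base exon that the reference transcript lacks. The stop of SRSF3-203 lies at chr6:36599852-36599854 on the plus strand, inside such an exon of 456 bases, and that of SRSF4-208 at chr1:29166009-29166011 on the minus strand, inside one of 175 bases. In ATP6V0A2-212 the stop at chr12:123742032-123742034 (plus strand) falls in a 65-base exon and in HEPH-207 the stop at chrX:66251331-66251333 (plus strand) in a 110-base exon, both absent from the reference. In TMEM126B-205 the extra exon has 172 bases and holds the stop at chr11:85631184-85631186 (plus strand). Exon skipping moved the reading frame onto a stop in RPS3-218 (a 95-base exon left out, stop at chr11:75404110-75404112, plus strand), in PARP12-205 (142 bases, chr7:140034251-140034253, minus strand), in CNTRL-222 (131 bases, chr9:121096428-121096430, plus strand) and in SKA3-201 (62 bases, chr13:21172500-21172502, minus strand). HNRNPA1-205 (stop at chr12:54284311-54284313, plus strand) and HNRNPA2B1-203 (chr7:26192516-26192518, minus strand) keep the stop codon of the reference and place 2 exon junctions after it.

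Over the 6228 members with a known stop codon, TGA closed the reading frame in 3526 (56.6%), TAA in 1449 (23.3%) and TAG in 1253 (20.1%). The stop lay a median of 541 bases before the last exon junction, with quartiles of 232 and 1174 bases, and a median of 4 junctions followed it. It lay at least 50 bases before the last junction in 6225 members, a distance that the annotation itself uses to define the class and that is no finding here. Compared with the reference transcript of the gene (MANE Select, or the Ensembl canonical transcript where there is none), 1888 members (30.3%) carried an exon that the reference lacks, 1854 (29.8%) skipped an exon and 1476 (23.7%) used another splice site. A further 443 had no splice difference before the stop, 344 shared the stop of the reference and were spliced after it, 138 had more than 1 difference, 69 retained an intron and 18 were not classed. The median member took 2.48% of the TPM of its gene, with medians of 2.12% for extra exons, 2.71% for skipped exons and 4.38% for retained introns.

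Salmon assigns reads that fit several transcripts by an estimate, so the sequence that a member shares with no other transcript of its gene bears on how firmly it was measured. A junction of its own was present in 4199 members, and 4430 had such a junction or at least 50 bases of their own. For 1656 members neither a junction nor a base was their own. In 963 members, 1 library held under 1 count while another held at least 100. This happened in 11.5% of members with sequence of their own and in 25.3% of the others. COX6C (a subunit of cytochrome c oxidase) shows the pattern within its own gene. COX6C-206 stood at 448.2, 139.2 and 93.87 TPM in −Dox and 249.4, 161.9 and 499.1 TPM in +Dox. COX6C-207 stood at 14.43, 332.4 and 405.8 TPM in −Dox and 265.4, 325.5 and 13.52 TPM in +Dox. A library high for one of these transcripts was low for the other, within both groups, and their sum moved far less. For that reason the share of a gene's TPM on all its members together was the main measure.

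The overall level of NMD transcripts differed little between the groups. Members took 1.867%, 1.917% and 1.901% of all TPM in −Dox and 1.840%, 1.846% and 1.835% in +Dox. The mean was 1.895% ± 0.0259 (SD, n = 3) in −Dox and 1.840% ± 0.00586 (SD, n = 3) in +Dox, a difference of −0.0548 percentage points with no overlap between the groups. By estimated counts they took 2.703%, 2.720% and 2.694% in −Dox and 2.698%, 2.706% and 2.671% in +Dox, and the groups overlapped. The values were described and not tested, since they sum over chosen members. Over the same libraries, retained-intron transcripts took 4.93% of TPM in −Dox and 4.62% in +Dox, without overlap. Plotting the members' total by library shows the separation in TPM and its absence in counts.

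**Figure D1:**
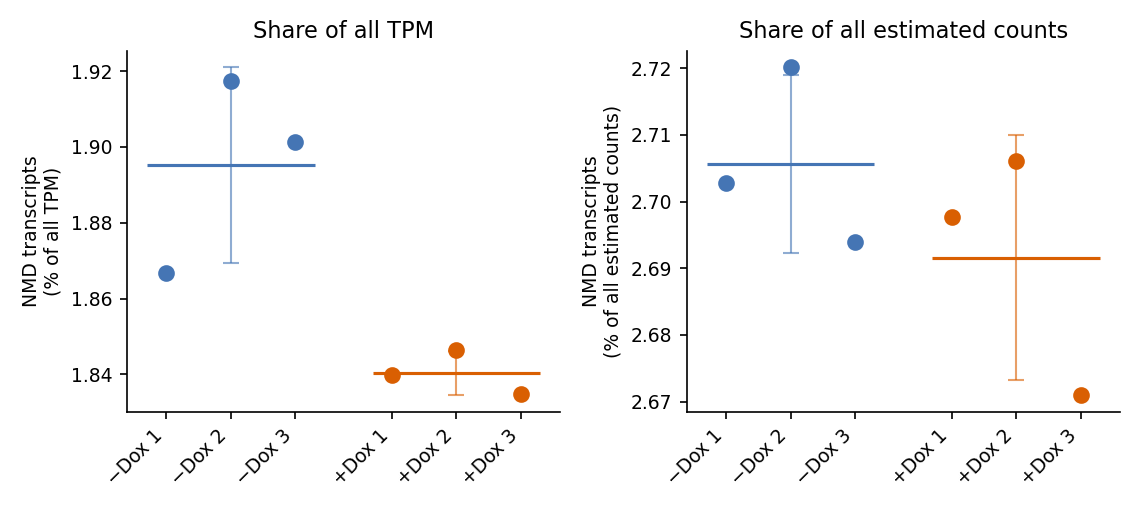
Points give the percent of all TPM (left) and of all estimated counts (right) on the 6230 NMD transcripts in each library, lines the group means and bars the SD (n = 3), on axes that do not start at 0. The −Dox libraries lie at 1.867% to 1.917% of TPM, above the +Dox libraries at 1.835% to 1.846%, while the groups overlap in counts.

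Across genes the NMD share, which is the TPM of the members as a percent of the TPM of the gene, had a median of 5.89% with quartiles of 2.29% and 15.2%. It was above 50% in 122 genes and under 1% in 366. A single member made up the class in 1771 genes, and HNRNPA2B1 had the most, with 19. The gene with the most NMD RNA was RPS3, which codes for a protein of the small ribosomal subunit. Its members held 35.6%, 34.0% and 34.9% of its TPM in −Dox and 34.4%, 35.4% and 36.9% in +Dox, or 1119 TPM on average. For HNRNPA1 (a splicing repressor) the shares were 36.4%, 38.4% and 38.3% in −Dox and 36.2%, 35.7% and 37.4% in +Dox. HNRNPA2B1, a related RNA-binding protein, stood at 53.1%, 51.2% and 51.4% in −Dox and 52.5%, 49.8% and 52.0% in +Dox. RPL11, a protein of the large subunit, was at 19.1% in −Dox and 20.3% in +Dox, and COX6C at 80.6% and 77.9%. In all 5 of these genes the groups overlapped, and the 95% interval of the log2 ratio between +Dox and −Dox held 0. For RPS3 that interval ran from −0.11 to 0.196, for HNRNPA1 from −0.22 to 0.066 and for HNRNPA2B1 from −0.19 to 0.128, so that a change of over 1.5-fold in the ratio of NMD to other transcripts lay outside it.

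In 10 genes all of the TPM was on NMD transcripts, which leaves no share to change. Among the 5 of them with the most TPM were ENSG00000290146, ENSG00000288258, H4C15 and ENSG00000270149. All exon bases of the NMD transcript shown for ENSG00000288258 also belong to CMC4 or MTCP1. For ENSG00000270149 the part shared with F11R or TSTD1 was 91.5%, and for ENSG00000290146 the part shared with C1S or EMG1 was 63.2%. The levels of these 3 genes are uncertain for that reason. These 10 genes stayed in the share test, where their ratio follows the level of the gene. The NMD transcripts of ENSG00000290146 averaged 42.6 TPM in −Dox and 31.0 TPM in +Dox (log2 ratio −0.46, adjusted p = 0.336 by limma). H4C15 is a histone gene, and its NMD transcript stood at 8.61 TPM in −Dox and 9.95 TPM in +Dox.

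The share of every gene was compared between +Dox and −Dox with limma on log2((class TPM + 0.1)/(rest of gene TPM + 0.1)), adjusted by Benjamini-Hochberg over 10703 rows of gene and transcript class. Of all rows, 0.0841% passed an adjusted p of 0.05, and of the 3203 NMD rows 1 did (0.0312%). At an unadjusted p under 0.05 there were 294 NMD rows (9.18%), 160 higher (5%) and 134 lower (4.18%) in +Dox, beside 8.02% of all rows. The groups did not overlap in 203 genes with a higher share (6.34%) and 213 with a lower share (6.65%), beside 4.97% and 8.86% of all rows. For retained-intron transcripts those shares were 3.56% and 11.5%. On estimated counts, the diffSpliceDGE test of edgeR called 12 NMD rows (0.375%) beside 0.243% of all rows, and RPL8 was not among them. The median difference of the NMD share was −0.016 points, with a median SD within a group of 1.37 points, and 120 genes were higher and 115 lower by over 5 points. The median 95% interval reached 1.09 on either side on the log2 scale for genes with 20 to 100 counts on their members, 0.656 with 100 to 1000 and 0.351 from 1000 on. At the lowest counts the interval thus reached a factor of 2.13 in the ratio of NMD to other transcripts on either side of the estimate. Plotting the shares of both groups against each other shows the cloud narrow from low to high shares.

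**Figure D2:**
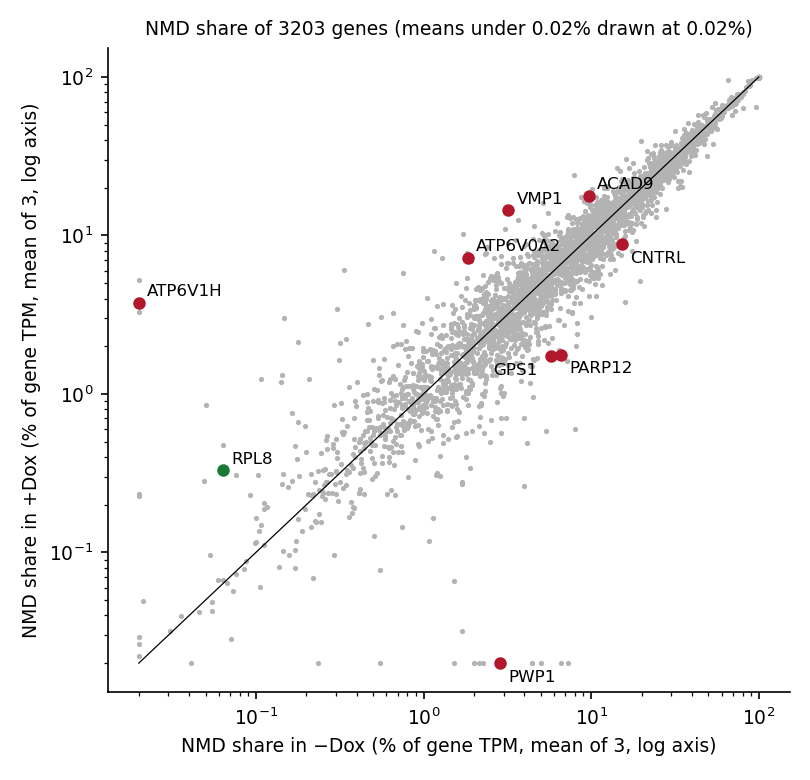
Each point is a gene, placed by its mean NMD share in −Dox (x) and +Dox (y), in percent of gene TPM on log axes (n = 3 each), with the diagonal as a line; red points are the 8 genes named by p among those with a difference of at least 2 points and the green point is RPL8. Most of the 3203 genes lie along the diagonal, and RPL8 sits above it at 0.064% against 0.329%.

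The gene that passed was RPL8, which codes for a protein of the large ribosomal subunit. Its NMD share was 0.0794%, 0.0686% and 0.0433% in −Dox and 0.341%, 0.318% and 0.330% in +Dox. The groups did not overlap, at a level that is a small part of the gene. The share rose by 2.33 on the log2 ratio scale (SE 0.262, adjusted p = 0.0433 by limma). The rise came from RPL8-211, at 0, 0.497 and 0 TPM in −Dox and 6.70, 5.55 and 6.47 TPM in +Dox, which has no junction and no base of its own. RPL8-211 met the count limit only through +Dox, where it is high, so the difference is in part fixed by the choice of members. RPL8-209, which has 2 junctions of its own, stood at 1.66, 0.980 and 0.920 TPM in −Dox and 0.824, 0.697 and 0.472 TPM in +Dox. With only members that have sequence of their own, the log2 ratio of RPL8 turned to −0.71 (adjusted p = 0.672 by limma), and its adjusted p lay between 0.0527 and 0.175 when any 1 library was omitted.

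The 4 genes with the smallest p among those whose share was higher by at least 2 points were VMP1, ATP6V1H, ATP6V0A2 and ACAD9, and none of them passed the adjusted test of limma. By diffSpliceDGE, VMP1 (adjusted p = 0.00388), ATP6V1H (0.000997) and ATP6V0A2 (0.00716) passed. VMP1, a membrane protein needed for autophagosome formation, had shares of 2.17%, 3.81% and 3.61% in −Dox and 16.2%, 10.8% and 16.6% in +Dox (log2 ratio 2.34, SE 0.306, adjusted p = 0.0964). The groups were far apart, and most of the difference was on VMP1-216, which has 1 junction of its own and averaged 0.701 TPM in −Dox and 6.93 TPM in +Dox. VMP1-216 has an incomplete coding start, and without such members the log2 ratio of VMP1 was 0.72 (adjusted p = 0.708 by limma). ATP6V0A2 and ATP6V1H are both subunits of the vacuolar proton pump that acidifies lysosomes. ATP6V0A2 had shares of 2.64%, 1.45% and 1.39% in −Dox and 6.39%, 6.64% and 8.73% in +Dox (log2 ratio 1.89, SE 0.269, adjusted p = 0.146). ATP6V1H was listed at 0 in all 3 −Dox libraries and had shares of 3.91%, 5.01% and 2.37% in +Dox (adjusted p = 0.0878), on a mean of 42.9 counts over the 6 libraries. Its single member met the count limit only through +Dox, so this difference too is in part fixed by the choice of members. ACAD9, an assembly factor of respiratory complex I, had shares of 8.95%, 10.0% and 9.98% in −Dox and 18.5%, 17.6% and 17.4% in +Dox (log2 ratio 0.98, SE 0.140, adjusted p = 0.146). With only members that have sequence of their own, the log2 ratio of ACAD9 was 0.36 (adjusted p = 0.631 by limma). Most of its difference was on ACAD9-206, which met the count limit only through +Dox. Without −Dox replicate 1 the adjusted p of ATP6V0A2 was 0.0472 by limma, and without any other library it lay between 0.289 and 0.368.

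The 4 with the smallest p among those whose share was lower were GPS1, PARP12, CNTRL and PWP1, and none passed the test of limma either, while PWP1 passed by diffSpliceDGE (adjusted p = 0.0205). GPS1, a subunit of the COP9 signalosome, had shares of 5.87%, 5.63% and 5.84% in −Dox and 2.06%, 1.78% and 1.34% in +Dox (log2 ratio −1.64, SE 0.271, adjusted p = 0.247). Its only member, GPS1-210, has no junction and no base of its own, so its level depends on how Salmon divided reads. PARP12, an interferon-induced ADP-ribosyltransferase, had shares of 5.14%, 9.12% and 5.54% in −Dox and 1.67%, 1.87% and 1.78% in +Dox (log2 ratio −1.62, SE 0.287, adjusted p = 0.290). CNTRL, a centriole protein, had shares of 15.03%, 16.15% and 14.66% in −Dox and 7.80%, 8.12% and 10.5% in +Dox (log2 ratio −0.89, SE 0.158, adjusted p = 0.290), and a log2 ratio of −0.42 (adjusted p = 0.619) with only members that have sequence of their own. Most of the difference in CNTRL was on CNTRL-222, which met the count limit only through −Dox. In these 3 genes the groups did not overlap. PWP1, a WD-repeat protein of ribosome assembly, had shares of 0.714%, 5.404% and 2.43% in −Dox and was listed at 0 in all 3 +Dox libraries (adjusted p = 0.290 by limma, 0.0408 without −Dox replicate 1 and 0.391 to 0.543 without any other library). The single member of PWP1 met the count limit only through −Dox, the group in which it is high. Plotting these shares by library shows how far the replicates of each group spread.

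**Figure D3:**
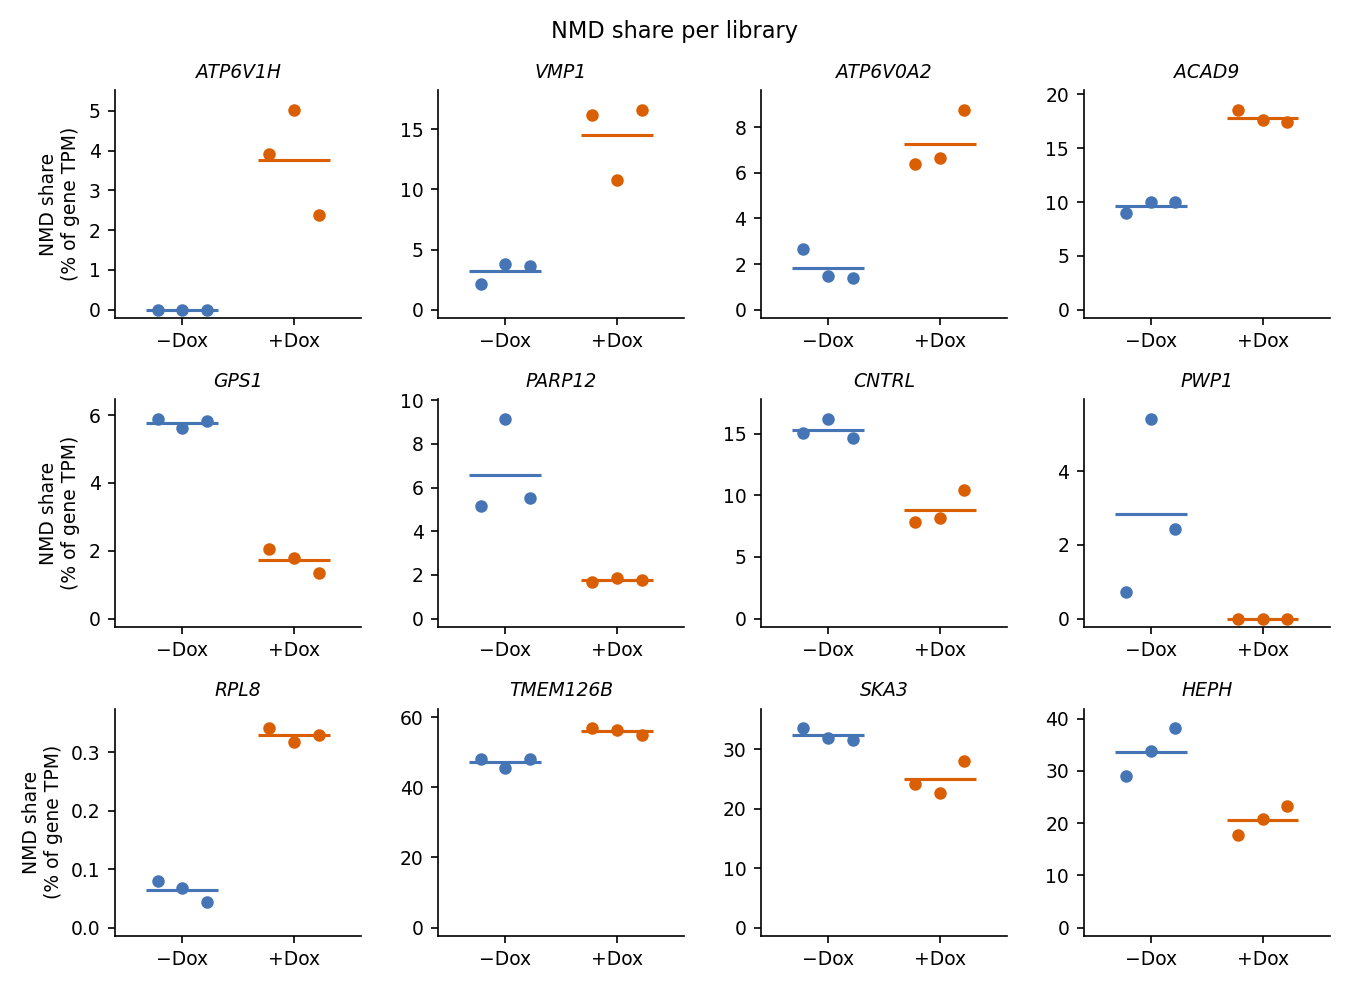
Points give the NMD share of 12 genes in each library, in percent of gene TPM, and lines the mean of each group (n = 3), with −Dox in blue and +Dox in orange. The groups do not overlap in any of these panels, which were chosen for that difference, and RPL8 runs from 0.0433% to 0.341% while TMEM126B runs from 45.4% to 56.8%.

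Single transcripts were tested with edgeR over 71054 transcripts with a mean of at least 20 counts. With an adjusted p under 0.05 and a log2 fold change above 1, 0.129% of all transcripts and 6 members (0.0963%) were called, 3 higher and 3 lower in +Dox. DESeq2 called 169 members at the same limits (2.81% of those with an adjusted p), beside 2.18% of all transcripts, so the order of members and all transcripts turned with the tool. At any fold 8 members passed (0.128%), beside 0.327% of all transcripts, and 528 (8.48%) had an unadjusted p under 0.05, beside 11.2% of all transcripts. Of the 6 called by edgeR, SKA3-201 was present in both groups. SKA3, a protein that ties kinetochores to microtubules, had 902.5, 869.0 and 903.6 counts on this form in −Dox and 315.4, 329.4 and 250.5 in +Dox. It fell by 1.54 on the log2 scale (SE 0.160, adjusted p = 0.0376 by edgeR), and its share of the gene was 16.1% ± 1.91 (SD, n = 3) in −Dox and 5.96% ± 1.42 (SD, n = 3) in +Dox. The reference form SKA3-202 stood at 15.6 TPM in −Dox and 15.4 TPM in +Dox. The NMD share of the gene over its 3 members was 33.5%, 31.9% and 31.7% in −Dox and 24.3%, 22.7% and 28.0% in +Dox (adjusted p = 0.534 by limma and 0.00716 by diffSpliceDGE).

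The other 5 were listed at 0 in every library of 1 group. BRD2-225, of a bromodomain protein that binds acetylated chromatin, had 0 counts in −Dox and 289.2, 472.4 and 494.8 in +Dox, at least 141.0-fold higher against 3 counts per library. ACAD9-206 had 0 counts in −Dox and 143.3, 124.3 and 171.8 in +Dox, at least 50.2-fold higher on the same floor. ZDHHC6-215, of a palmitoyltransferase, had 0 counts in −Dox and 88.7, 97.2 and 139.7 in +Dox, at least 37.0-fold higher. CNTRL-222 had 264.0, 372.9 and 250.4 counts in −Dox and 0 in +Dox, at least 96.8-fold lower. TTC3-215, of a ubiquitin ligase, had 164.5, 170.8 and 92.4 counts in −Dox and 0 in +Dox, at least 46.1-fold lower. These bounds cover counting error and not how Salmon divided reads. BRD2-225, ACAD9-206, ZDHHC6-215 and CNTRL-222 have no junction and no base of their own, while TTC3-215 has 1 junction. BRD2-225 took 2.62% of its gene in +Dox, ZDHHC6-215 2.75%, and TTC3-215 0.682% in −Dox. These 5 met the count limit only through the group in which they were present, so their difference is in part fixed by the choice of members. Among all members, 80 (1.28%) were at 0 in every −Dox library and 70 (1.12%) in every +Dox library, beside 0.877% and 0.8% of the 52595 transcripts of any class at the same limits.

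Past the adjusted p but under the fold limit were TMEM126B-205 and NCAPG-205, named after their values were seen. TMEM126B, another assembly factor of respiratory complex I, had 2641, 2475 and 2388 counts on this poison-exon form in −Dox and 4038, 4523 and 4318 in +Dox. TMEM126B-205 rose by 0.81 on the log2 scale (SE 0.0455, adjusted p = 0.0218 by edgeR). It has no junction and no base of its own, and its share of the gene was 21.7% ± 0.348 (SD, n = 3) in −Dox and 35.0% ± 2.67 (SD, n = 3) in +Dox. The protein-coding TMEM126B-201 stood at 66.9, 72.4 and 70.6 TPM in −Dox and 56.2, 59.1 and 61.8 TPM in +Dox, again without overlap. The NMD share over the 7 members of TMEM126B was 47.1% in −Dox and 55.9% in +Dox (log2 ratio 0.51, SE 0.089, adjusted p = 0.290 by limma and 0.0188 by diffSpliceDGE). NCAPG-205, of a condensin subunit, has 2 junctions of its own, and had 3349, 3476 and 3263 counts in −Dox and 4708, 5192 and 5199 in +Dox. It rose by 0.61 on the log2 scale (SE 0.062, adjusted p = 0.0373 by edgeR). With any 1 of the 6 libraries left out, no member was called past the fold limit by edgeR, and the adjusted p of these 8 transcripts lay between 0.0859 and 0.194.

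The transcripts whose share of gene TPM did not overlap between groups were counted by their kind of splice difference. Over all 6230 members, 396 (6.36%) were higher and 407 (6.53%) lower in +Dox, beside 6.33% and 7.55% of the 52595 transcripts at the same limits. Among the 1888 members with an extra exon, 158 were higher and 118 lower. Among the 1854 that skip an exon, 92 were higher and 143 lower. Other splice sites gave 82 in each direction, retained introns 2 higher and 8 lower. These are counts without a test. They were not limited to members that met the count limit in each group alone. For members that met it through the group where they are high, the separation is in part fixed by the choice of members. The plot of stop positions and of these counts shows both.

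**Figure D4:**
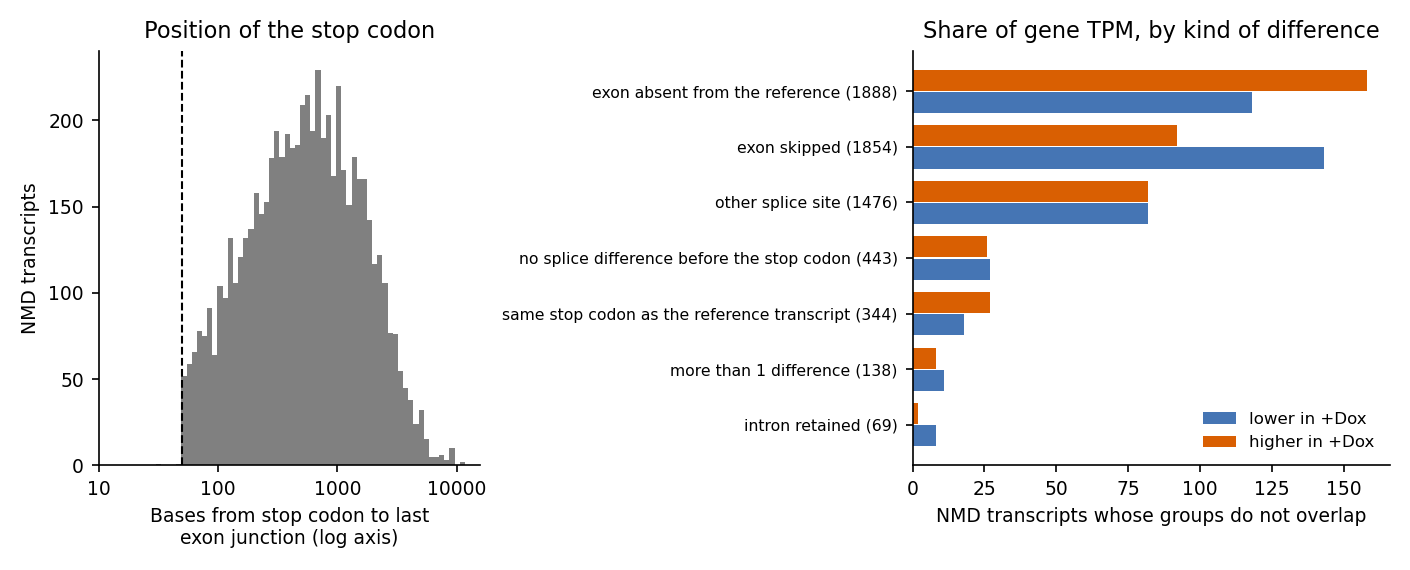
Left, number of NMD transcripts by distance in bases from the stop codon to the last exon junction (log axis, dashed line at 50 bases); right, number of members whose share of gene TPM did not overlap between groups, by kind of difference from the reference, with the number of members in brackets and orange for higher, blue for lower in +Dox. Extra exons had 158 higher and 118 lower, skipped exons 92 higher and 143 lower. The counts were not limited to members that met the count limit in each group alone.

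Since PCBP1 binds C-rich RNA, the 50 intron bases before extra exons were read from GRCh38 on the strand of the gene. Members of any kind with an exon that the reference lacks were used. Where a member had several, only the one with the lowest coordinate was read. The letters CCCC were present in 267 of 1813 such windows (14.7%), beside 20.5% of 40588 windows before exons of the MANE Select transcripts of the same genes, and the reverse complement GGGG in 6.18% and 8.92%. For extra exons of transcripts whose share lay higher in every +Dox library the share with CCCC was 17.9% of 162 windows, and for those that lay lower 14.8% of 128. These 2 sets were not limited to members that met the count limit in each group alone, and their difference was not tested. A longer run of C counts as 1 match, and such runs overlap the pyrimidine tract that precedes nearly every exon. Examples are given as the last 30 bases of the intron, with runs of at least 4 C in capitals. Most of them hold such a run, while 14.7% of all windows held CCCC, so they do not show how common it is.
TMEM222-202: tgaCCCCtttCCCCCttctcttgcctccag
HNRNPA2B1-203: atttgatgtaagttttttttttCCCCCCag
CARM1-209: gtaagtgctattattgtCCCCattttacag
SRSF3-203: atctattaataaaaatgaaCCCCgttacag
ATP6V0A2-212: tcttttctctttcgttcctgtcctgctcag
They lie at chr1:27330955-27330984 (plus strand), chr7:26197867-26197896 (minus), chr19:10908520-10908549 (plus), chr6:36599791-36599820 (plus) and chr12:123741999-123742028 (plus). The HNRNPA2B1-203 window precedes a 36-base exon that does not hold the stop codon, which is that of the reference. TMEM222 and CARM1 were among the genes whose splicing the study followed, but the exons shown here were not matched to its exons. With PCBP1 OE the study reported more inclusion of an exon in TMEM222 and in GOLGA2, and no change in CARM1. An NMD share over all members of a gene is not the inclusion of a single exon, so the values below do not test those reports. TMEM222 had an NMD share of 16.6% ± 2.67 (SD, n = 3) in −Dox and 19.9% ± 2.64 (SD, n = 3) in +Dox. CARM1, an arginine methyltransferase, had 6.94% ± 0.668 (SD, n = 3) in −Dox and 4.47% ± 1.76 (SD, n = 3) in +Dox. DIS3, a nuclease of the RNA exosome whose single member skips an 85-base exon, had 45.9% ± 4.10 (SD, n = 3) in −Dox and 41.9% ± 1.36 (SD, n = 3) in +Dox. GOLGA2, a Golgi matrix protein, had 0.699% and 0.893%. PCBP2, the closest relative of PCBP1, had 2.93%, 2.84% and 2.83% in −Dox and 2.24%, 2.68% and 2.04% in +Dox, without overlap (log2 ratio −0.32, SE 0.150, adjusted p = 0.660 by limma). Of the exon bases of PCBP2-218, its most abundant member, 23.8% also belong to other genes on the same strand. None of these 5 passed the test, and in the other 4 the groups overlapped.

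The SR proteins promote exon inclusion, and TRA2 and CLK genes act with them. Members were present in 16 of the 17 genes of this list, with a median share of 12.7% and a range from 0.252% in SRSF9 to 56.2% in SRSF8, beside 5.89% over all genes. None passed the adjusted test of limma, 2 had an unadjusted p under 0.05 (8.02% of all rows), and in 3 the groups did not overlap, all higher in +Dox (4.97% of all rows were higher and 8.86% lower). Over the NMD rows alone, 9.18% had an unadjusted p under 0.05 by limma, and the groups did not overlap in 6.34% higher and 6.65% lower. These background shares, over all rows and over NMD rows, apply to the lists that follow, where those over all rows are printed. SRSF4 had 2.73%, 2.39% and 2.0001% in −Dox and 3.69%, 3.82% and 4.52% in +Dox (log2 ratio 0.74, SE 0.188, adjusted p = 0.456). CLK1, a kinase that phosphorylates SR proteins, had 30.4%, 23.2% and 24.6% in −Dox and 38.7%, 27.3% and 38.4% in +Dox (adjusted p = 0.614), with overlap. TRA2B had 20.9%, 20.2% and 21.4% in −Dox and 21.6%, 23.9% and 22.4% in +Dox (adjusted p = 0.693). SRSF1 had 22.2%, 21.1% and 21.9% in −Dox and 22.5%, 23.7% and 24.0% in +Dox (adjusted p = 0.709). SRSF3, SRSF6 and SRSF7 overlapped between the groups.

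Among the hnRNP and PCBP list, which holds other splicing regulators, 28 of 43 genes had members, with a median share of 4.53%. None passed by limma, 4 had an unadjusted p under 0.05 (background 8.02%), and the groups did not overlap in 6 that were higher (4.97%) and 2 that were lower (8.86%). CIRBP, a cold-inducible RNA-binding protein, had 8.45%, 8.84% and 8.49% in −Dox and 12.6%, 11.6% and 14.7% in +Dox (log2 ratio 0.65, SE 0.150, adjusted p = 0.397). TARDBP, which codes for TDP-43, had 1.82%, 2.86% and 2.90% in −Dox and 3.81%, 3.19% and 4.66% in +Dox (adjusted p = 0.614). TIA1, a U-rich binding splicing factor, had 3.31%, 3.82% and 4.78% in −Dox and 2.54%, 2.66% and 0.935% in +Dox (adjusted p = 0.614), and 23.1% of the exon bases of the TIA1 form shown by the annotation overlap C2orf42 on the same strand.

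Of the heme and iron genes, 22 of 43 had members, with a median share of 3.49%. None passed the adjusted test of limma, 4 had an unadjusted p under 0.05 (background 8.02%), and the groups did not overlap in 1 gene that was higher (4.97%) and 5 that were lower (8.86%). HEPH, a ferroxidase of iron export, had 29.1%, 33.9% and 38.1% in −Dox and 17.7%, 20.7% and 23.3% in +Dox (log2 ratio −0.96, SE 0.185, adjusted p = 0.336 by limma and 0.00239 by diffSpliceDGE). HEPH-207, which includes the 110-base exon and has 2 junctions of its own, averaged 2.43 TPM in −Dox and 1.22 TPM in +Dox. IREB2, which codes for the iron-sensing RNA-binding protein IRP2, had 7.17%, 9.02% and 7.46% in −Dox and 3.28%, 4.53% and 3.49% in +Dox (log2 ratio −1.03, SE 0.222, adjusted p = 0.365). UROD, an enzyme of heme synthesis, had 7.08% in −Dox and 5.07% in +Dox. SLC25A37 (mitoferrin, the mitochondrial iron importer) had 10.7%, 12.6% and 11.2% in −Dox and 13.9%, 13.7% and 15.6% in +Dox (adjusted p = 0.603).

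Ribosomal protein genes had low NMD shares for the most part, although RPS3 and RPL11 are among the genes with the most NMD RNA. Members were present in 31 of 79, with a median share of 0.197%. Of these 31, 5 had an unadjusted p under 0.05 by limma, RPL8 among them (background 8.02%). The groups did not overlap in 6 that were higher and 1 that was lower, beside 4.97% and 8.86% of all rows. Besides RPL8, RPS9 had 0.841%, 0.928% and 1.03% in −Dox and 1.27%, 1.26% and 1.34% in +Dox (adjusted p = 0.506). RPL13 had 1.381%, 1.110% and 1.252% in −Dox and 1.603%, 1.487% and 1.737% in +Dox (adjusted p = 0.588). Among aminoacyl-tRNA synthetases 20 of 38 genes had members (median 4.12%), among translation factors 24 of 45 (median 2.31%) and among red cell genes 5 of 34 (median 1.52%), and none passed. In the first 2 of these lists the groups failed to overlap in 1 gene each, lower in +Dox, and in the red cell list in 0. The leading genes by p were RARS2 (22.9% in −Dox and 17.1% in +Dox), AARS1 (5.06% and 3.19%) and IARS1 (3.20% and 2.42%) among the synthetases. They were EIF3G (1.47% and 0.852%), EIF3M (11.7% and 8.68%) and EIF6 (9.98% and 8.67%) among the translation factors, and GYPB (1.79% and 1.02%), EPB41 (1.18% and 1.86%) and LMO2 (1.54% and 1.82%) among the red cell genes. Of the exon bases of EIF6-206, 30.5% also belong to another gene on the same strand. The plot of shares by list gives the spread of single libraries.

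**Figure D5:**
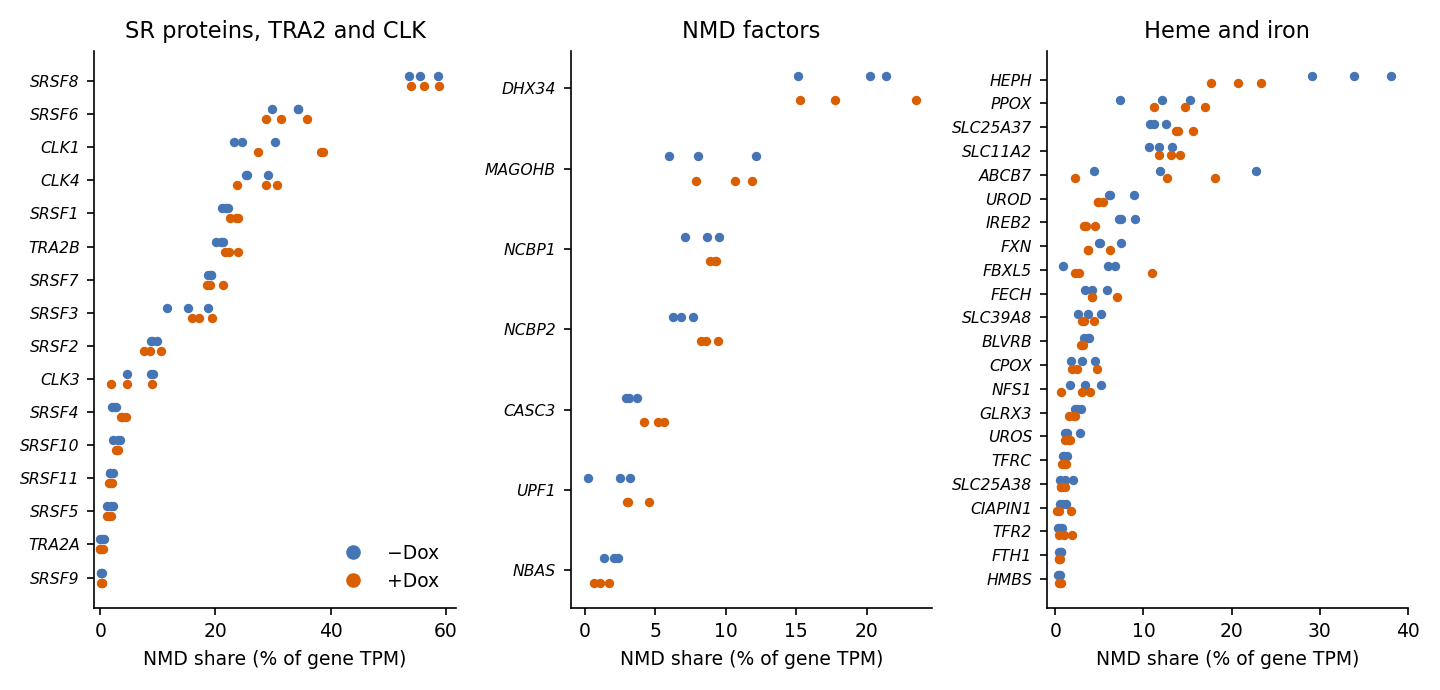
Each row is a gene and each point a library, placed by the NMD share in percent of gene TPM, with −Dox in blue and +Dox in orange, for SR protein, TRA2 and CLK genes (left), NMD factors (middle, 7 of the 8 with members) and heme and iron genes (right). HEPH and SRSF4 show groups that do not overlap, while SRSF8 and DHX34 show groups that do.

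The factors of the decay pathway were first taken as targets of it. Members were present in 8 of 29 NMD factor genes, with a median share of 8.31% and a range from 1.53% (NBAS) to 18.9% (DHX34). None passed the adjusted test of limma, 1 had an unadjusted p under 0.05 (background 8.02%), and 2 did not overlap, both higher in +Dox (background 4.97%). NCBP2, a subunit of the nuclear cap-binding complex, had 6.26%, 7.68% and 6.84% in −Dox and 8.23%, 9.43% and 8.58% in +Dox (adjusted p = 0.614). CASC3, a core protein of the exon junction complex, had 3.12%, 3.72% and 2.91% in −Dox and 5.199%, 5.659% and 4.179% in +Dox (adjusted p = 0.699). NBAS had 1.94% in −Dox and 1.13% in +Dox. In UPF1 itself the members took 0.270%, 2.54% and 3.20% in −Dox and 3.07%, 4.57% and 3.01% in +Dox, on a mean of 83.5 counts.

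The mRNA level of the same factors was compared by edgeR over 21045 genes, of which 15.8% passed an adjusted p of 0.05 whatever the fold, 8.16% higher and 7.68% lower in +Dox. Of 29 NMD factors, 1 rose, 5 fell and 23 did not pass, and their median log2 fold change was −0.09 beside 0.0061 over all genes. Of protein-coding genes at or above 5 TPM without a member, 13.1% were higher and 14.2% lower at the same limit. ICE1, a factor that stimulates NMD, stood at 165.8, 170.6 and 157.8 CPM in −Dox and 132.2, 140.8 and 133.3 CPM in +Dox (log2 fold change −0.28, SE 0.049, adjusted p = 0.0018). The helicase EIF4A3 of the exon junction complex stood at 151.0, 170.4 and 160.9 CPM in −Dox and 139.5, 128.1 and 132.8 CPM in +Dox (log2 fold change −0.27, SE 0.055, adjusted p = 0.00496). Its partner MAGOH fell by 0.24 on the log2 scale (adjusted p = 0.023), the release factor gene ETF1 by 0.20 (adjusted p = 0.00723) and the helicase DHX34 by 0.19 (adjusted p = 0.0255). PYM1, which takes the exon junction complex apart, rose from 27.0 ± 0.315 (SD, n = 3) to 33.1 ± 1.44 CPM (SD, n = 3) (log2 fold change 0.29, SE 0.056, adjusted p = 0.00334). In each of these 6 genes the groups did not overlap. UPF1 averaged 53.3 CPM without and 50.4 CPM with Dox (adjusted p = 0.433). DHX34 lost its call without any 1 of the libraries except −Dox replicate 1, at adjusted p of 0.0558 to 0.110, and MAGOH without −Dox replicate 2 or 3 or +Dox replicate 2 or 3, at 0.0714 to 0.0948.

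The genes that carry members were also compared by their total mRNA. With an adjusted p under 0.05 and a log2 fold change above 1, 8 of 3203 were DEGs (0.25%), beside 0.317% of 5042 protein-coding genes at or above 5 TPM without a member and 1.46% of all genes tested. Without the limit on fold, 835 (26.1%) passed, 401 higher (12.5%) and 434 lower (13.5%), beside 27.4% of those other genes (13.1% higher and 14.2% lower). The count of 835 member genes was 547 without −Dox replicate 2. The 8 DEGs were named after their values were seen. FAXDC2, a hydroxylase-like membrane protein, stood at 23.4, 25.5 and 22.9 CPM in −Dox and 100.8, 100.7 and 95.8 CPM in +Dox (log2 fold change 2.05), while its NMD share was 23.0% and 20.9%. PPOX, an enzyme of heme synthesis, stood at 20.05 and 47.21 CPM (1.24) with shares of 11.6% and 14.3%. FIG4 (1.18), NT5M (1.17) and IGFLR1 (1.07) also rose, and ANTXR2 (−1.01), HPGD (−1.26) and DDIT4 (−2.04) fell. All exon bases of the NMD transcript of IGFLR1 also belong to another gene on the same strand. NT5M, a mitochondrial nucleotidase, had NMD shares of 58.6%, 49.2% and 53.0% in −Dox and 34.7%, 27.8% and 50.5% in +Dox. In all 8 genes the shares of the groups overlapped, and none passed the share test.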

How the data were processed

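The authors ran Salmon 1.10.2 on paired-end reads (150 cycles). For each library and transcript they deposited an estimated count, which is not scaled, and a TPM value, which Salmon corrects for effective length. Replicates were not pooled. The submitters' processing notes name hg38 as the genome build. The index, strand and bias settings of Salmon are not given in the sources used here, so genes that overlap on either strand are uncertain.

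Transcript classes came from GENCODE 44 (GRCh38), in which 251142 of the 252045 identifiers were found with the same version, 251612 by identifier alone and 433 not at all. The last held 0.125% to 0.138% of the counts of a library. The NMD share of a gene is the TPM of its members as a percent of the TPM of all its transcripts. It was tested with limma 3.58.1 (eBayes with a trend on counts) on the log2 ratio of member TPM to the rest of the gene, with a pseudocount of 0.1 TPM, over protein-coding genes at or above 5 TPM and all transcript classes other than protein-coding with at least 20 counts. A difference is on that scale and understates changes of low shares. Estimated counts were rounded, and transcripts (mean of at least 20) and genes (mean above 10) were tested with edgeR 4.0.16 (quasi-likelihood, TMM) in R 4.3.3. DESeq2 1.42.0 was an alternative. All tests were two-sided with Benjamini-Hochberg adjustment over the whole table. DEGs were called, as in the study, at an absolute log2 fold change over 1 with an adjusted p below 0.05. Between any pair of replicates the chi-square of gene counts was 8.16 to 17.5 per gene, above what counting error gives. The tests were also run on simulated data, and the outcome is not reported here.

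The members, lists and tests were chosen with earlier results of these data known. The genes named are, in the share test, the 4 with the smallest p in each direction that differ by at least 2 points. They further include the 5 with the most NMD TPM, the 5 with the highest share, up to 3 of each list by p, the NMD factors past the gene test, the genes that the study named and up to 3 transcripts called in each direction. The NMD share of each list was compared with that of all genes by counts and medians. RPL8 falls under the list rule. SRSF1, SRSF3, SRSF6, SRSF7, SRSF8, SRSF9, UROD, UPF1, DHX34 as a target, the other isoforms and the extra genes named as such fall outside these rules. PCBP1, NUMB and NQO2, which the study names, had no member. Of the 9 lists, the 19 cell type markers were used for the check of the line. Some genes that these rules or lists hold are not reported here.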

Additional observations from a re-analysis of the deposited data

How the results depend on the processing

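The 1 gene past the share test was RPL8, and it was again the 1 gene with a pseudocount of 1 TPM and with a mean of at least 100 counts. With estimated counts in place of TPM the 1 gene was ATP6V1H (adjusted p = 0.00534; RPL8 0.116), and with lower limits on level it was DUSP28 (RPL8 0.0583). The count was 12 (8 higher, 4 lower) with edgeR's diffSpliceDGE on counts (RPL8 0.274), and 0 with one prior variance for all rows, with a complete coding start, with sequence of their own, with a difference above 5 points, and with the replicate number as a block. With single libraries left out it ran from 0 to 4. RPL8 turned to −0.713 both with a complete coding start (adjusted p = 0.674) and with sequence of their own (0.672). RPL8-211, which held the rise, is left out there. Of the 6 transcripts called, all were called by DESeq2, which called 169 members (87 higher, 82 lower), 2.81% beside 2.18% of all transcripts. There were 11 calls by edgeR where each library had to hold 10 counts or more. Of the 6, only SKA3-201 entered that fit (adjusted p = 0.00895 by edgeR), as the others were at 0 in a whole group. There were 4 with DESeq2 size factors in edgeR, without ZDHHC6-215 (adjusted p = 0.0504) and TTC3-215 (0.0503). With all transcripts of any count there were 6, 2 higher and 4 lower, without ZDHHC6-215 (0.0592). There were 0 with the replicate block or with any single library left out, where fits over all transcripts called 0 to 4. The number of DEGs among member genes ran from 7 to 11 over the 10 alternatives. At any fold it ran from 547, without −Dox replicate 2, to 844 with libraries left out, and was 568 with the block. For NMD factors it was 10 by DESeq2 and 4 to 8 with libraries left out. The difference in the members' part of all TPM was −0.0141 points by estimated counts and −0.069 to −0.0437 with libraries left out.

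The deviations of same-numbered libraries correlated at 0.0075, −0.0605 and −0.0029, so the numbers were not taken as pairs; the block ended the calls of the share and transcript tests, and of DHX34 (adjusted p = 0.071) and ETF1 (0.0546). PCBP1 kept a log2 fold change of 1.90 to 1.98 over libraries left out. Depth limits low shares, with an interval of 1.09 on either side on the log2 scale at 20 to 100 counts.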
